A study of Mus musculus with 20 samples.

Results

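Hearts of 10 wild-type (WT) mouse embryos at stage E13.5 (the number of embryonic days) form the baseline described here, chosen by the genotype label as the 10 of 20 RNA sequencing (RNAseq) libraries labelled wt_d or wt_t. The 5 wt_d hearts came from littermates of Dp3Tyb embryos and the 5 wt_t hearts from littermates of Ts1Rhr embryos. Both are mouse strains with a duplicated segment of chromosome 16, made to model Down syndrome, and the WT littermates carry no duplication. The labels give no strain background, sex, litter or pooling, and the initials d and t were read as those of Dp3Tyb and Ts1Rhr. Each library is taken as 1 heart, which the series design states. Whole hearts were dissected, snap frozen and extracted, and the kit captured polyadenylated RNA. The 10 mutant libraries were not used, and the 2 labels were not compared.

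At this stage the ventricles and atria contract while septa and valves are still forming. The tissue holds cardiomyocytes, which fill the chamber walls, the endocardium that lines them, the epicardium that covers them, and mesenchyme of the endocardial cushions and great vessels, with embryonic blood inside the chambers. Cardiomyocytes of the embryo use forms of myosin, troponin and metabolic enzymes that are in part replaced by paralogues after birth, so the balance between paralogues is a common readout of maturity and chamber identity.

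A value below is the deposited normalised read count, meaning reads of a gene divided by a library factor. A level is that value per kilobase of the longest annotated transcript, scaled to a sum of 1000000 over the 21316 protein-coding genes of a heart, and only levels are compared between genes. A ranking by value is a ranking by output of reads, to which long transcripts give more. A nuclear level is scaled to the same sum over nuclear genes alone. Numbers are the mean ± SD over 10 hearts unless stated, and no group was tested against another.

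Libraries held 6.60 to 19.3 M reads (mega, M, median 15.7). Hearts stood apart in 4 ways that touch the results. The share of reads on the 13 mitochondrially encoded genes ran from 4.60% to 19.1%, with wt_d heart 5 at 19.1%, wt_t heart 4 at 16.9%, wt_t heart 1 at 11.5% and wt_t heart 2 at 10.2%, and the other 6 hearts at or under 6.92%. The libraries with the 2 highest shares were also the shallowest, at 6.60 and 9.50 M reads. Blood transcripts were most abundant in wt_t hearts 5 and 2. Lung and foregut transcripts were near 0 in wt_d hearts 2, 4 and 5 and present in the other 7. Xist and the Y-linked gene Ddx3y marked wt_d hearts 1 and 2 and wt_t hearts 1 and 4 as male and the other 6 as female. Of the protein-coding genes, 14095 had a read in all 10 hearts and 3951 had none in any.

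Mitochondrial genes, contractile genes and a few growth and translation genes led the ranking by value. The highest value was that of mt-Co1, a subunit of cytochrome c oxidase encoded in the mitochondrial genome, at 408759.8 ± 185233, and it was first in all 10 hearts. Of the 25 genes of highest value 9 were mitochondrially encoded. The leading nuclear gene was Myh7, the beta myosin heavy chain, at 135628 ± 21527, with hearts from 109385 to 182684 (median 135303). Igf2, an imprinted growth factor of the embryo, followed at 118497 ± 31558, then Eef1a1, which delivers transfer RNA to the ribosome, at 95549 ± 2418, Actc1, the cardiac alpha actin, at 93330.3 ± 10789, and Myh6, the alpha myosin heavy chain, at 66402 ± 10238. The hearts ranged narrowly for Eef1a1, from 93359 to 100587 (median 94942), and more widely for Igf2, from 94564 to 173965 (median 100583), with wt_d heart 5 highest for both Igf2 and Myh7. Tnnt2 (cardiac troponin T) at 49968 ± 17114, Myl2 (the ventricular myosin light chain) at 44959 ± 6946, Atp2a2 (the calcium pump of the sarcoplasmic reticulum) at 32808 ± 3100.0 and Tpm1 (tropomyosin) at 32228 ± 8201 completed the contractile and calcium genes of the list. The imprinted genes Mest, at 41719 ± 4382, and Igf2r, a receptor that clears Igf2, at 38795 ± 5307, were also among the 25. The others were Gapdh of glycolysis, the ubiquitin ligase Nedd4, the chaperone Hsp90ab1, the fibrillar collagen Col3a1 and the growth factor binding protein Igfbp5, with means from 32459.9 for Igfbp5 to 42668 for Gapdh.

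Division by transcript length changed 10 of the 25 names. The median transcript length of the 25 fell from 3218 to 1038 bases, against 3344 over all protein-coding genes. Short transcripts of blood and muscle entered the list. These were the alpha globins Hba-a2 and Hba-a1 and the beta globins Hbb-y and Hbb-bs, the atrial myosin light chain Myl7, the cardiac troponin C gene Tnnc1, the atrial natriuretic peptide gene Nppa, the ATP synthase subunit Atp5f1b and the mitochondrial genes mt-Atp6 and mt-Nd4l. Long transcripts left it, among them Myh6, Igf2r and Mest. Myh7 fell from rank 6 by value to rank 19 by level, and Igf2 from rank 8 to rank 17.

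On the level scale the leading nuclear genes were Hba-a2 at 7592 ± 6051, Hbb-y at 7523 ± 4152, Myl2 at 6759 ± 559.6, Eef1a1 at 5983 ± 1184, Actc1 at 5162 ± 1421, Tnnt2 at 4856 ± 535, Igf2 at 4817 ± 268, Hba-a1 at 4803 ± 3475 and Myh7 at 4202 ± 571. The globins had by far the largest SDs against their means. Which nuclear genes look even depends on the scale, since the SD of Igf2 was 26.6% of its mean by value and smaller by level, and that of Eef1a1 was 2.53% of its mean by value and larger by level, where mitochondrial transcripts enter the total. Neighbours in either order mostly did not differ beyond their spread: only 1 of 24 neighbouring pairs by value and 3 of 24 by level stood in the same order in every heart. By level those 3 were mt-Cytb above mt-Nd4, mt-Nd5 above mt-Co2, and Tnnc1 above Myl7. With the canonical transcript in place of the longest, 22 of the 25 genes were kept, and Mest, Gapdh and Myl4 took the places of the others. Without the 4 hearts over 10% mitochondrial reads, 21 of the 25 by value and 24 of the 25 by level were kept.

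**Figure D1:**
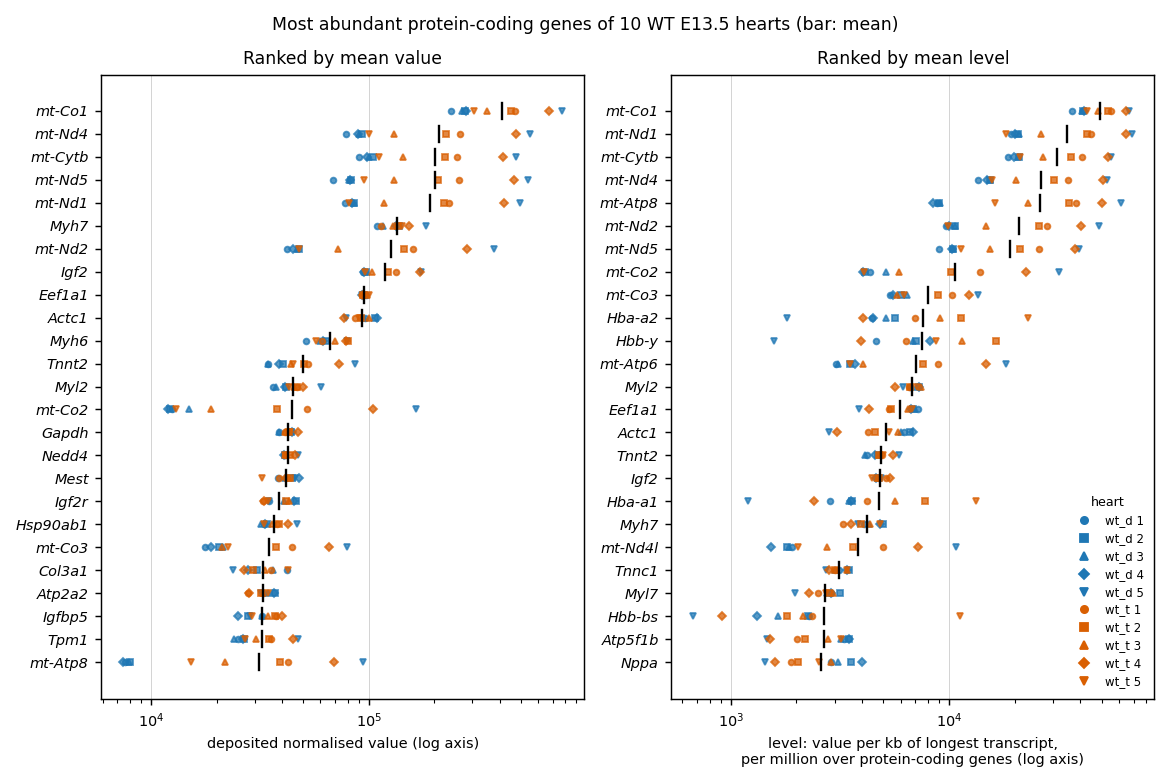
Most abundant protein-coding genes by mean value (left, normalised reads, log axis) and by mean level (right, per kb of longest transcript and scaled to 1000000 over protein-coding genes, log axis), with 1 symbol per heart (blue, wt_d; orange, wt_t) and a black bar at the mean of 10 hearts. Mitochondrial and globin genes spread most, while the values of Eef1a1 lie between 93359 and 100587.

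Transcript output was concentrated. The 25 leading genes of each ranking together held 15.6% ± 5.44 of all protein-coding value and 30.3% ± 11.5 of the level. On average 852 genes held 50% of the value and 251 held 50% of the level, and with nuclear genes alone these numbers were 1122 and 704. The 13 mitochondrially encoded genes held 24.1% ± 12.6 of the level, from 13.3% in wt_d heart 1 to 47.4% in wt_d heart 5. Within the nuclear level, 81 cytosolic ribosomal protein genes held 7.51% ± 0.261, the 15 cardiomyocyte markers 4.11% ± 0.254, 8 globin genes 3.36% ± 2.02 and 44 collagen genes 0.644% ± 0.122. On this scale the ribosomal and cardiomyocyte shares were thus even between hearts, and the globin share was not. Shares of the level ranged more widely, from 3.91% to 6.82% for the ribosomal genes and 2.41% to 3.66% for the cardiomyocyte markers. For the globins they ran from 0.608% to 6.43%.

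Heart markers were abundant in every library. All 15 cardiomyocyte markers had reads in every heart, and their mean summed level of 31021 ± 4460.2 was the highest of the marker lists, ahead of the erythroid list at 26173 ± 17016. The highest of these markers by level were Actc1, Tnnt2, Myh7, Tnnc1 and Myl7. Ttn, which encodes the giant sarcomeric protein titin, had a value of 15273 ± 4011 but a level of only 27.5 ± 4.34, and the ryanodine receptor gene Ryr2, the calcium release channel, had a level of 53.6 ± 12.2. On the nuclear scale the summed cardiomyocyte level lay between 37624 in wt_d heart 1 and 45838 in wt_d heart 5, a coefficient of variation (CV) of 6.18%. Sums over different lists rest on which genes were listed, so an order of the lists is not an order of cell numbers, and in whole hearts fewer cells of a type and less RNA per cell cannot be told apart.

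Endothelial and endocardial markers were all detected. On the nuclear scale their sum was the most even of the cell type and chamber lists, which did not hold on the level scale (CV 19.03%, against 11.7% for the ventricular list). The 14 genes summed to a nuclear level of 1471 ± 66.4 (CV 4.52%). Cdh5, the cadherin of endothelial junctions, was highest by level at 213 ± 21.8, with Plvap of the vessel diaphragm at 104 ± 22.1, the angiopoietin receptor Tek at 103 ± 19.4 and the adhesion molecule Pecam1 at 101 ± 17.3. Nfatc1, a transcription factor of endocardium that forms valves, stood at 39.2 ± 5.14 and Npr3, another endocardial gene, at 99.6 ± 14.01. Cldn5, a tight junction gene of vessels, was low and uneven, with values from 41.1 to 171 (median 105).

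Epicardial markers were a minor part of the transcriptome, with all 9 genes read in every heart and a summed nuclear level of 351 ± 31.2 (CV 8.88%, and 21.2% on the level scale). Upk3b, a mesothelial gene, was highest at a level of 75.7 ± 20.3, and the transcription factors Tbx18, Wt1 and Tcf21 followed at 53.5 ± 12.7, 38.4 ± 2.29 and 37.1 ± 10.9. Mesenchyme and valve genes had a larger sum, at 5492 ± 835 on the nuclear scale. Most of that sum was fibrillar collagen, with levels of 1190.4 ± 383 for Col3a1, 873 ± 318 for Col1a1 and 737 ± 294 for Col1a2, followed by the matrix protein Postn of cushions at 640.4 ± 82.9 and the proteoglycan Vcan at 189 ± 27.4. Values of Hapln1, which links hyaluronan to Vcan in the cushion matrix, ran from 882 to 2275 (median 1692), lowest in wt_t heart 5. The receptor gene Pdgfra was far more even, from 2291 to 2662 (median 2543).

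Smooth muscle and pericyte markers were led by Acta2, the smooth muscle actin that embryonic cardiomyocytes also express, at a level of 967 ± 191, then the actin-binding proteins Tagln at 316 ± 75.8 and Cnn1 at 243 ± 39.6. The list summed to a nuclear level of 2239 ± 189. Myh11, the myosin of mature smooth muscle and of the great vessels, behaved differently from these. Its values were 71.8, 89.8 and 147 in wt_d hearts 4, 2 and 5, and 384 to 891 in the other 7. Rgs5, a pericyte gene, also spread widely, from 715 to 2222 (median 1328).

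Blood cells other than red cells were scarce in transcripts. The 12 macrophage markers summed to a nuclear level of 151 ± 25.2. The lysozyme gene Lyz2 at a level of 22.7 ± 5.42, the mannose receptor Mrc1 at 15.6 ± 3.91, C1qa at 15.03 ± 5.56 and the receptor Csf1r at 14.2 ± 4.88 led them, and Timd4 was lowest at 0.386 ± 0.211. The 5 platelet and megakaryocyte genes summed to 25.5 ± 11.1, and all 5 were highest in wt_d heart 3, which was highest for 6.49% of the 13490 protein-coding genes with a mean value of at least 10. There Itga2b, the platelet integrin, had a value of 308 against a median of 117.

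Red cell transcripts had the widest spread of the blood and heart cell type lists (CV 60.3%). The 12 erythroid genes found in the annotation summed to a nuclear level of 33720.3 ± 20332, from 11626 in wt_d heart 5 to 76384 in wt_t heart 5, a 6.57-fold range. The heme synthesis gene Alas2 ran from 297 to 2146 (median 617), and Slc4a1, the anion exchanger of the red cell membrane, from 294 to 2439 (median 652). The 2 hearts richest in blood transcripts differed in kind. In wt_t heart 5 the adult-type globins stood out, with Hbb-bs at 64834 against 6327 to 16077 in the other 9 and Hbb-bt at 28040.1 against 2217 to 7849.6. The alpha globins were highest there too, with Hba-a2 at 71859 against a median of 17542 and Hba-a1 at 45231 against 11853. In wt_t heart 2 the embryonic globins were at their highest, with Hbb-y at 56145 against a median of 20766, Hbb-bh1 at 1429 against 304 and Hba-x at 19989 against 5549. Embryonic beta-type globins are made mainly by primitive red cells, which arise in the yolk sac, and adult-type beta globins mainly by definitive red cells, which at this stage come from the fetal liver.

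The log2 ratio of embryonic Hbb-y to adult-type Hbb-bs, by level, was 1.73 ± 0.996, from -0.37 in wt_t heart 5 to 3.18 in wt_t heart 2, and Hbb-y was the higher in 9 of 10 hearts. With the canonical transcript, which is shorter for Hbb-bs, the mean ratio was 0.83, and Hbb-y was still the higher in 9 of 10 hearts. For the alpha globins the adult-type gene was the higher in all 10 hearts, with a log2 ratio of Hba-x to Hba-a1 of -1.51 ± 0.62, lowest again in wt_t heart 5 at -2.92. Hba-a1 and Hba-a2 are near-identical copies, as in part are Hbb-bs and Hbb-bt, so how reads were divided within each of these couples is uncertain. The sequences just upstream of 4 of these genes are shown because the balance of embryonic and adult-type globins was what set these hearts apart. Each is the 120 bases before the transcript start, from RefSeq on build GRCm38.p6, 5′ to 3′ on the strand of the gene, for Hba-x at chr11:32276480-32276599 on the plus strand, Hba-a1 at chr11:32283552-32283671 on the plus strand, Hbb-y at chr7:103853208-103853327 on the minus strand and Hbb-bs at chr7:103827929-103828048 on the minus strand. Capitals mark TATAAA or TATAAG starting between 40 and 20 bases before the start on the gene's strand, and CCAAT and CACCC on either strand.
Hba-x (embryonic alpha): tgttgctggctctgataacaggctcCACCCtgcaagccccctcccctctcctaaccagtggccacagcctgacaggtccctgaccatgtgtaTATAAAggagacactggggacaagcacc
Hba-a1 (adult-type alpha): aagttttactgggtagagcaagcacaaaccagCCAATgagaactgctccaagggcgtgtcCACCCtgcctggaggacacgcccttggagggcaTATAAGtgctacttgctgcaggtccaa
Hbb-y (embryonic beta): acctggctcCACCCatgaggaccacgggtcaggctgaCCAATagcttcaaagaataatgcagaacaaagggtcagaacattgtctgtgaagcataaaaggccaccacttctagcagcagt
Hbb-bs (adult-type beta): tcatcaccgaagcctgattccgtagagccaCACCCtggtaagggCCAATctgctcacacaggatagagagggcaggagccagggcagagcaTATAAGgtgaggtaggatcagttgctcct
All 4 windows held CACCC, which 31.7% of 32851 promoters of the same length did. CCAAT, found in 21.3% of promoters, was in all but the Hba-x window. A TATA match in the stated window, found in 2.95% of promoters, was in all but the Hbb-y window. These matches describe letters only.

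**Figure D2:**
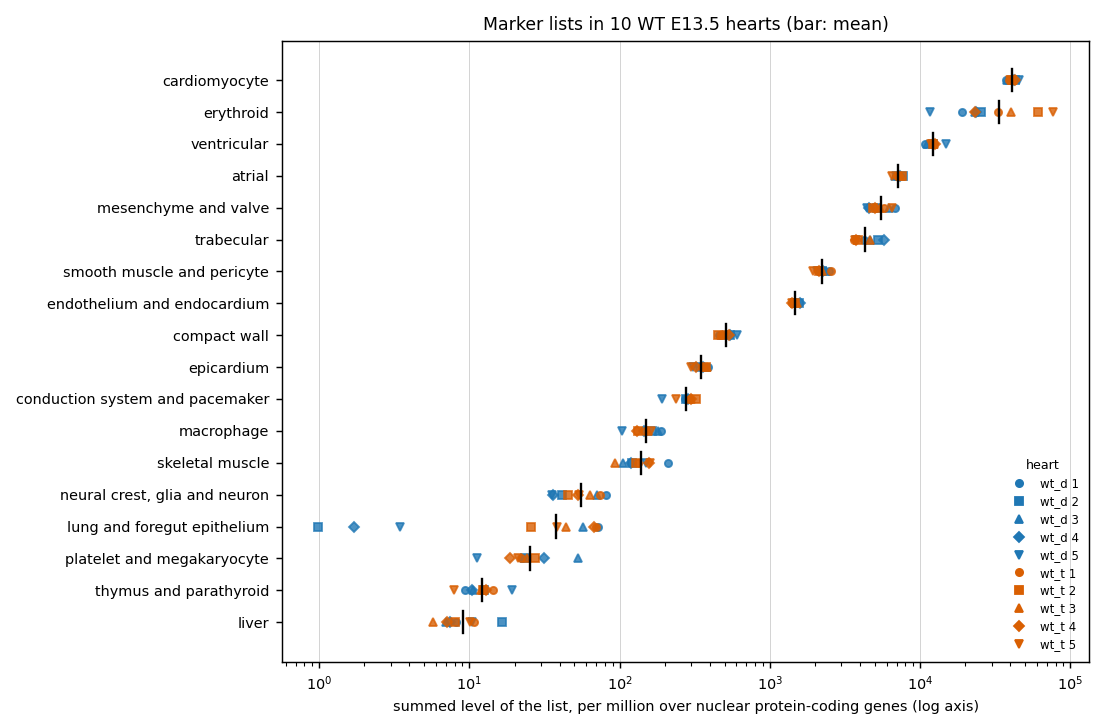
Summed level of each marker list in each heart, scaled to 1000000 over nuclear protein-coding genes (log axis), with 1 symbol per heart and a black bar at the mean. Cardiomyocyte sums lie within 37624 to 45838, erythroid sums cover 6.57-fold, and the lung and foregut list falls to 3.48 or less in 3 hearts.

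Ventricular markers outweighed atrial ones in sum. The 7 ventricular genes summed to 12291 ± 1102 and the 10 atrial genes to 7137 ± 361 on the nuclear scale, and both sums were carried by myosin light chains. Beyond these, the ventricular repressor Hey2 had a level of 127 ± 12.99 and the calcium pump inhibitor Pln of 579 ± 72.6, while the atrial genes Angpt1 (a vessel growth factor), Dkk3 and Nr2f2 (an atrial transcription factor) had levels of 82.9 ± 8.63, 64.4 ± 14.3 and 53.96 ± 6.61. Sln, an atrial regulator of the same calcium pump, was at only 11.99 ± 4.05. The trabecular list had a sum of 4321 ± 744 on the nuclear scale (CV 17.2%). Nppa carried most of it, at a level of 2591 ± 849, with the transcriptional cofactor Cited1 at 313 ± 84.8, the conduction connexin Gja5 at 140.1 ± 37.5 and the growth factor Bmp10 at 107 ± 12.95. Nppb, the other natriuretic peptide, ranged from 301 to 1029 (median 902), with wt_t heart 5 lowest.

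Conduction and pacemaker genes were present at low level in every heart and were lowest in sum in wt_d heart 5. Values of Hcn4, the pacemaker channel, ran from 229 to 729 (median 574), those of Shox2, a sinus node factor, from 282 to 715 (median 485), and those of Tbx3, a repressor of working myocardium in the conduction system, from 235 to 517 (median 415). These 3 were among the 5 of 8 listed genes that were lowest in that heart, which was lowest for 27.5% of the 13490 protein-coding genes with a mean value of at least 10. Cardiac transcription factors had levels well under those of the leading sarcomere genes. Tbx20 was highest by level at 226 ± 45.6, then Mef2a at 185 ± 14.4, Hand2 at 154 ± 16.9, Gata4 at 146 ± 30.2 and Nkx2-5 at 135 ± 38.4. Isl1, a factor of cardiac progenitors and the sinus node, was lowest at 6.90 ± 1.77. Values of Gata4 ran from 3074 to 3618 (median 3345), and those of Hand2 more widely, from 1366 to 3189 (median 1633). The transcription factor list summed to a nuclear level of 1808 ± 153 and the conduction list to 278 ± 37.3.

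Cell cycle genes had an even sum on the nuclear scale. The 14 proliferation genes summed to 2525 ± 115 on the nuclear scale (CV 4.54%, against 8.44% for the transcription factors and 5.87% for immediate early genes), led by the sliding clamp Pcna at a level of 298 ± 62.8, the topoisomerase Top2a at 273 ± 37.99 and the cyclin Ccna2 at 256 ± 35.4. On the level scale, where mitochondrial transcripts enter the total, that order turned, with CVs of 16.8%, 11.2% and 14.8%. Among D-type cyclins Ccnd2 exceeded Ccnd1 in all 10 hearts (log2 ratio of Ccnd1 to Ccnd2 -1.32 ± 0.10). The 15 immediate early genes, which rise on handling and stress, summed to 372 ± 21.8. Fos had a value of 51.9 ± 6.18, Egr1 of 399.7 ± 83.4 and Jun of 1300.0 ± 288. Of 13 genes of the hypoxia response, 7 were highest in wt_t heart 5, against 12.2% of the 13490 protein-coding genes with a mean value of at least 10, although their sum, which Pgk1 and Ldha carry, was highest in wt_d heart 4. In wt_t heart 5 Ndrg1, which is induced by low oxygen, reached 894 against a median of 270.0, and Egln3, an oxygen-sensing hydroxylase, 794 against 357. That heart was also the highest in erythroid transcripts and the lowest in Nppb, and whether these go together was not tested.

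Transcripts of tissues next to the heart were low and uneven. The 10 lung and foregut epithelium genes summed to a nuclear level of 0.991 in wt_d heart 2, 1.71 in wt_d heart 4 and 3.48 in wt_d heart 5, on 13, 19 and 12 reads. In the other 7 hearts the sum was 25.6 to 72.01, on 243 to 737 reads. Nkx2-1, the transcription factor of lung and thyroid, had values from 0 to 56.1 (median 25.4). The epithelial cadherin Cdh1 ran from 1.495 to 161 (median 90.9) and the signal gene Wnt7b from 0 to 93.9 (median 51.01). All of these had the same 3 hearts lowest. The lung surfactant gene Sftpc was at most 1.16 in any heart. Liver genes were near 0, with Alb at a value of 9.72 ± 8.92 and Hnf4a at 0 reads in all hearts, which at 3 reads allows values of up to 2.24 to 8.81 per heart. The thymus and parathyroid list rested on Ccl25 alone, a chemokine not limited to thymus, and Foxn1, which defines thymic epithelium, was at most 0.809. Glial and neuronal genes were low but present, with a summed nuclear level of 55.4 ± 16.4. Erbb3, a receptor of glial precursors, had a value of 330.4 ± 48.3 and the glial factor Sox10 of 36.3 ± 21.7.

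Skeletal muscle genes set 1 heart apart. In wt_d heart 1 the embryonic skeletal myosin Myh3 had a value of 931, against 1.495 to 67.5 in the other 9. That heart was highest for 7 of the 12 listed genes, against 11.05% of the 13490 protein-coding genes with a mean value of at least 10. Only 7 of the 12 listed genes reach that mean, so the count and the share rest on unlike sets. Among them Myh8, the perinatal skeletal myosin, reached 315 against a median of 52.7, and the myogenic factors Myog and Myod1 reached 73.03 and 23.2 against medians of 7.04 and 0.929. The same heart was also highest for 9 of 15 glial and neuronal genes, to be read against the same share, although only 13 of the 15 reach that mean. The share of these signals that came from cells outside the heart was not tested.

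Paralogue balances were steady, and 31 of 34 stood in 1 order in all 10 hearts, with a median SD of 0.22 on the log2 scale. Without the 4 hearts over 10% mitochondrial reads, 32 did. All ratios below are log2 of levels, and a negative sign means that the second gene was the higher. The beta myosin Myh7 exceeded the alpha myosin Myh6, with a ratio of Myh6 to Myh7 of -1.11 ± 0.16 (2.16-fold), from -1.39 to -0.85. The ventricular light chain Myl2 exceeded the atrial Myl7 (Myl7 to Myl2, -1.33 ± 0.13). The fetal troponin I gene Tnni1 exceeded the adult Tnni3 in 8 of 10 hearts only (Tnni1 to Tnni3, 0.75 ± 0.54), and the 2 exceptions were wt_d heart 5 and wt_t heart 4, the hearts with the most mitochondrial reads.

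Several forms typical of skeletal muscle were far below their cardiac counterparts, though not the calsequestrin Casq1, given below. Acta1 to Actc1 was -4.82 ± 0.15, Tnnt1 to Tnnt2 -2.95 ± 0.18 and Tpm2 to Tpm1 -3.40 ± 0.13. The ryanodine receptor Ryr3, which is found in several tissues, was also below Ryr2 (Ryr3 to Ryr2, -3.13 ± 0.12). The widest gaps were those of the fast skeletal troponin C (Tnnc2 to Tnnc1, -12.46 ± 1.84) and the skeletal calcium pump (Atp2a1 to Atp2a2, -10.11 ± 0.82), both smallest in wt_d heart 1, where the skeletal myosins were high. For Tnnc2, and for Hcn2 below, at least 1 heart had 0 reads, so the ratios rest on the pseudocount of 1 and are no bound. Ankrd1, a titin-binding stress gene, exceeded its relative Ankrd23 by 6.997 ± 0.68.

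Among membrane and signal genes, Nppa exceeded Nppb (Nppb to Nppa, -4.05 ± 0.57), and the working connexin Gja1 exceeded the conduction connexin Gja5 (Gja5 to Gja1, -0.67 ± 0.27) and Gjc1 of the slow nodal tissue (Gjc1 to Gja1, -2.74 ± 0.22). The pacemaker channel gene Hcn4 far exceeded Hcn2, the only other channel gene of its family that was compared (Hcn2 to Hcn4, -4.78 ± 0.79). Pln exceeded Sln (Sln to Pln, -5.64 ± 0.37).

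Metabolic paralogues leaned to the broadly expressed form. Ldha exceeded the heart form Ldhb (Ldhb to Ldha, -0.94 ± 0.10), Eno1 exceeded the muscle enolase Eno3 (Eno3 to Eno1, -1.64 ± 0.18), Pgam1 exceeded the muscle mutase Pgam2 (Pgam2 to Pgam1, -0.59 ± 0.18), and the glucose transporter Slc2a1 exceeded the insulin-responsive Slc2a4 (Slc2a4 to Slc2a1, -2.84 ± 0.22). Hexokinase was mostly Hk1 (Hk2 to Hk1, -2.64 ± 0.22). The oxidase subunits Cox6a1 and Cox8a exceeded the muscle forms Cox6a2 and Cox8b, by a ratio of Cox6a2 to Cox6a1 of -1.06 ± 0.40 and of Cox8b to Cox8a of -6.95 ± 0.55. The heart and muscle forms led for the adenine nucleotide translocator, with Slc25a4 to Slc25a5 at 0.80 ± 0.09, and for the fatty acid carrier, with Fabp3 to Fabp5 at 0.78 ± 0.15, although the latter shrank to 0.0151 with the union of exons. Some orders turned with the length assigned to a gene. Myl4 to Myl3 was 0.56 ± 0.16 with the longest transcript and -0.64 with the union of exons. Casq1 to Casq2 was 0.82 ± 0.34 and turned to -0.61 with the union of exons. Cox7a1 to Cox7a2 was 0.44 ± 0.23 and turned to -2.11 with the canonical transcript. Ckm to Ckb was -1.40 ± 0.60 and turned to 0.40 without division by length. Irx4 to Nr2f2, of a ventricular and an atrial factor, was -0.48 ± 0.29 and turned to 0.34 with the union of exons. No order is given for these 5. The other 29 couples kept their direction with every length used, and 19 of them moved by over 1.5-fold with at least 1 of these lengths or without division by length.

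**Figure D3:**
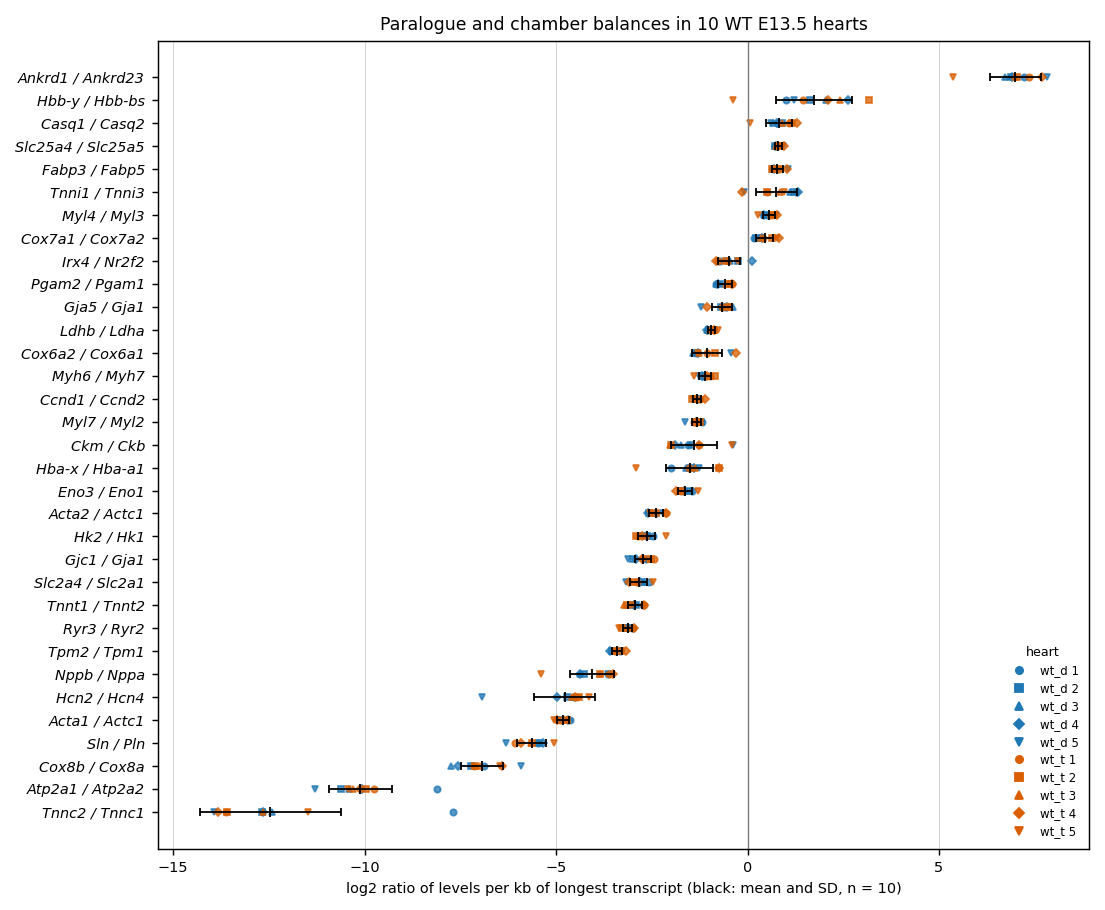
Log2 ratio of the levels of 2 paralogues or chamber genes, for the reported couples, in each heart (coloured symbols) with the mean and SD over 10 hearts in black; the grey line is a ratio of 1. Most couples lie on 1 side of the line, and the widest spread is that of Tnnc2 to Tnnc1, from -13.94 to -7.69.

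Relations between list scores were computed for 6 couples, where a score is the mean over a list of log2(value + 1) minus the mean of each gene. Permutation p-values are 2-sided and were adjusted over the 6 by the Benjamini-Hochberg method, and none passed 0.05 on the deposited scale. Atrial and ventricular scores, which share no gene, gave r = 0.58 (permutation p = 0.0824, adjusted 0.124) and rho = 0.72 (permutation p = 0.0232, adjusted 0.0696), with r = 0.60 without the 2 hearts farthest from the median atrial score. Scaling to nuclear protein-coding reads turned this r to -0.27. Cardiomyocyte against mesenchyme and valve scores gave r = -0.59 (permutation p = 0.0623, adjusted 0.124) and rho = -0.73 (permutation p = 0.0198, adjusted 0.0696), with r = -0.60 without the 2 farthest hearts. Scaled to nuclear protein-coding reads this r was -0.80 (permutation test, adjusted 0.0359). In the 6 hearts at or under 10% mitochondrial reads the atrial and the mesenchyme r were 0.71 and -0.84. Cardiomyocyte and erythroid scores gave r = 0.14 (permutation p = 0.699, adjusted 0.699) and rho = -0.09 (permutation p = 0.811, adjusted 0.811), with r = -0.36 without the 2 farthest hearts. The mitochondrial read share and the cardiomyocyte score gave r = 0.41 (permutation p = 0.228, adjusted 0.273) and rho = 0.26 (permutation p = 0.471, adjusted 0.565), with r = 0.14 without the 2 farthest hearts and -0.067 when scaled to nuclear protein-coding reads. Because lung and foregut scores fell into clusters of 3 and 7 hearts, they were related within the 7 only. There r with the mesenchyme and valve score was 0.71 (exact permutation p = 0.0722, adjusted 0.124), with rho = 0.75 (exact permutation p = 0.0663, adjusted 0.133). With the glial and neuronal score r was 0.80 (exact permutation p = 0.0288, adjusted 0.124) and rho = 0.46 (exact permutation p = 0.302, adjusted 0.454). Single hearts decided some of these. Without wt_d heart 5 the atrial and ventricular r was 0.82 (exact permutation test, adjusted 0.0458 over the 6). Without wt_d heart 1 the cardiomyocyte and erythroid r was -0.13. Without wt_t heart 4 the lung and glial r was 0.96 (exact permutation test, adjusted 0.00833, the smallest value possible with 6 hearts). These runs were picked from all that left out a heart, and no p-value was adjusted for that choice, so they establish no relation. With 7 hearts, r without the 2 farthest was not computed. Each label alone has 5 hearts, too few for a correlation.

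Most genes differed little between hearts. Over the 10592 protein-coding genes with a mean value of at least 100, the SD of log2(value + 1) had a median of 0.18, where read counting alone would give a median of 0.067. In 280 genes (2.64%) the SD was over 0.5 and in 25 it was over 1, while in 324 it was under the counting SD. The spread leaned on the hearts with many mitochondrial reads. In the 6 hearts at or under 10% the median SD was 0.098 and 70 genes exceeded 0.5. The shallowest, wt_d heart 5, was the highest heart for 30.1% of these genes and the lowest for 26.7%, and without it 134 genes exceeded 0.5. In wt_d heart 5 and wt_t heart 4 low depth and a high mitochondrial share came together and cannot be told apart.

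**Figure D4:**
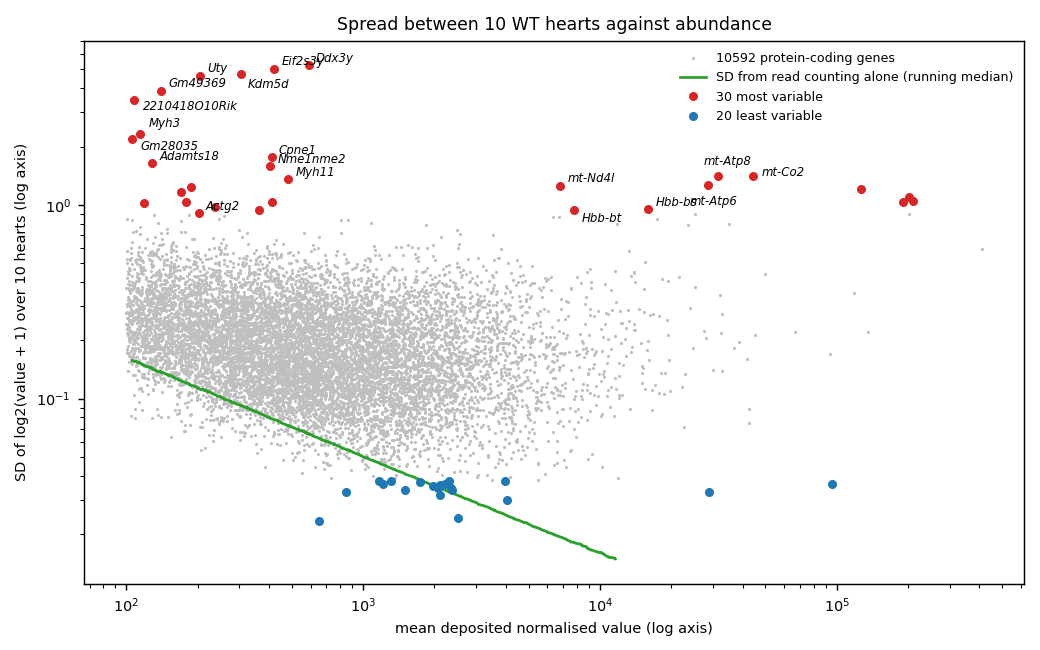
SD of log2(value + 1) over 10 hearts against the mean value of each of 10592 protein-coding genes (both log axes), with the running median of the SD expected from read counting in green. The Y-linked genes lie highest, and the 20 least variable genes (blue) lie lowest, 11 of them under their own counting SD.

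Many of the 30 most variable genes fell into a few recognisable groups, and others fitted none. One was sex. Ddx3y, Eif2s3y, Kdm5d and Uty, all on chromosome Y, had SDs of 5.25, 5.05, 4.74 and 4.65. Ddx3y was at 1434 to 1545 in the 4 male hearts and at most 1.55 in the 6 others, with no overlap. Xist, the non-coding RNA that silences an X chromosome in females, was at 12424 or more in the same 6 hearts and at most 14.04 in the 4.

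Another group was the mitochondrial genome. Of its 13 protein-coding genes 8 were among the 30, namely mt-Atp8, mt-Co2, mt-Atp6, mt-Nd4l, mt-Nd2, mt-Nd5, mt-Nd4 and mt-Nd1, and all 8 were highest in wt_d heart 5 and second in wt_t heart 4. They did not vary to the same extent. The SD was 1.42 for mt-Atp8, with values from 7458 to 94454 (median 18581), and 0.59 for mt-Co1, with values from 238055 to 776337 (median 327679.7). Within the 6 hearts at or under 10% mitochondrial reads the SD of mt-Co2 dropped from 1.41 to 0.25, and that of mt-Atp8 from 1.42 to 0.66.

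Blood formed a group of its own, with the beta globins Hbb-bh1, Hbb-bs and Hbb-bt and the red cell membrane gene Ermap. Ermap was at 461 in wt_t heart 2 and at 29.4 to 144 in the other 9. Hsd3b6, a steroid dehydrogenase gene, had the same highest heart at 1004, with the others from 91.02 to 503.

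A further group held genes that were low in wt_d hearts 2, 4 and 5, in which the lung and foregut list was also near 0. Adamts18, a matrix protease gene, was at 10.5, 11.7 and 56.3 in wt_d hearts 4, 5 and 2 and at 97.6 to 250.4 in the other 7. Gdf10, a growth factor of the transforming growth factor beta family, was at 32.3 to 69.3 in the 3 and 173 to 399 in the 7. Actg2, the enteric smooth muscle actin, was at 65.1 to 96.7 in the 3 and 138 to 418 in the 7, and Myh11 showed the same split. For these 4 genes the 3 hearts lay below the 7 without overlap, as did 1.22% of the 10592 genes, while 1.38% lay above the 7 without overlap. Of the 23 other lists 5 separated the same hearts without overlap and 18 did not. The smooth muscle and pericyte score, whose list holds Myh11, was -0.35 to -0.29 in the 3 and -0.07 to 0.33 in the 7. The conduction score was also lower in the 3, at -0.59 to -0.05 against -0.03 to 0.20. The trabecular score was higher in the 3, at 0.0880 to 0.204 against at most 0.0814, as was that of the compact wall, at 0.0877 to 0.187 against at most 0.0330, and, by a narrow gap, that of the cardiomyocytes, at 0.0687 to 0.0868 against at most 0.0669. The glial and neuronal score was -1.16 to -0.500 in the 3, met by wt_t heart 2 at -0.501. Since the 3 were picked by the lung list, and are all labelled wt_d, this is a description, and the part of adjoining tissue or of these lists in it was not tested. Clca3a2, of a family of chloride channel regulators, did not follow the split, being highest in wt_t heart 5 at 678. Myh3, described above, stood alone.

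The remaining 7 names were Gm49369, 2210418O10Rik, Gm28035, Cpne1, Nme1nme2, Cdk2ap1rt and Xlr3b. Several are read-through models or copies of other genes, between which RSEM, the counting program, divides reads, and the part of this in their spread was not tested. Gm49369 was at 188 to 528 in the 4 hearts over 10% mitochondrial reads, highest in wt_d heart 5. It was at 143 in wt_t heart 3 and at most 5.80 in the others, with 0 in 3 of them. Nme1nme2, a read-through of Nme1 and Nme2, was at 19.1 in wt_t heart 4, 88.1 in wt_d heart 5 and 443 to 627 in the other 8. Cpne1, a calcium-dependent phospholipid-binding gene, was likewise low, at 11.7 in wt_d heart 5 and 109 in wt_t heart 4, and at 276 to 638 in the others. Cdk2ap1rt was highest where the mitochondrial share was, at 575, 369 and 199.8 in the 3 hearts of highest share and 69.9 to 124 in the other 7, and its SD was 1.03 over all hearts and 0.24 in the 6 at or under 10%. Without the 4 hearts over 10% mitochondrial reads, 15 of the 30 names were kept, and Cpne1 moved from rank 9 to rank 289. At the edge of the list stood Actg2, with an SD of 0.91, and just outside it mt-Cytb, with 0.90.

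**Figure D5:**
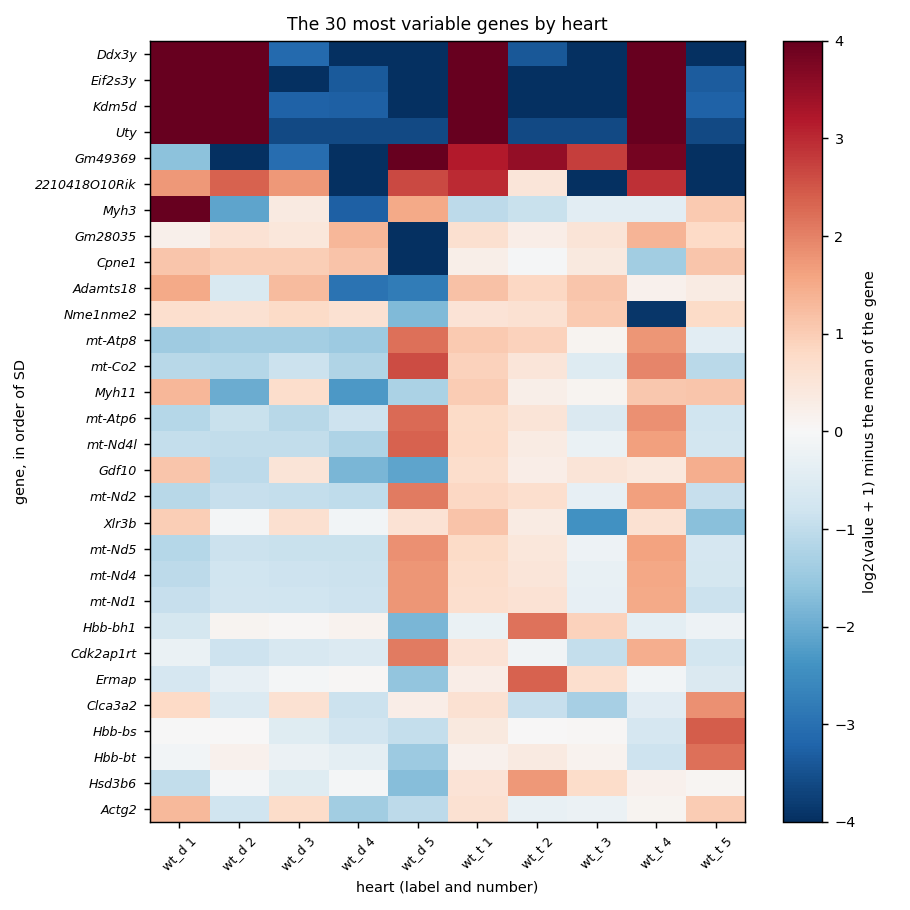
Log2(value + 1) minus the mean of the gene (colour, clipped at -4 and 4) for the 30 most variable genes in each of 10 hearts. The Y-linked genes split 4 hearts from 6, 8 mitochondrial genes are highest in wt_d heart 5, and Hbb-bs and Hbb-bt are highest in wt_t heart 5.

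The least variable genes had SDs near what counting gives. The 20 with the smallest SD ran from 0.0235 for Ilkap, a phosphatase of integrin-linked kinase, to 0.0376 for Raly, an RNA-binding protein gene, and 11 of them were under their own counting SD. Just outside was Adam19, with 0.0379. The values of Ilkap lay between 635 and 672 (median 650.2), and those of the calpain gene Capn2 between 2430.3 and 2560.1 (median 2540.3). The most abundant of the 20 were Eef1a1 and the imprinted adaptor gene Grb10, at 28971 ± 661, whose SDs of 0.0361 and 0.0330 were above their counting SDs of 0.00516 and 0.00933. The others had mean values of at most 4036, that of the phosphatase subunit gene Ppp1cc, and included the trafficking genes Sec23a and Ap1g1, the cytoskeletal gene Wasf2, the collagen-modifying Colgalt1, the interferon receptor Ifnar1, and Bzw2, Hint1, Cab39, Zfp664, Esd and Mrfap1. This list is not fixed by the data alone. With TMM factors 11 of the 20 were kept and with scaling to nuclear protein-coding reads 0. By the biological coefficient of variation of edgeR 0 were kept, and without the 4 hearts over 10% mitochondrial reads 0. In the 6 hearts left, the 20 still had small SDs, from 0.0235 for Ap1g1 to 0.0434 for Colgalt1, against a median of 0.098. The 20 were picked from hearts that include these 6.

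None of 15 common reference genes was among the 20. Ppia, a cyclophilin, was the steadiest of them with an SD of 0.0389 and values from 11203 to 12487 (median 11960.5), followed by Sdha (0.0726), the ribosomal protein gene Rpl13a (0.0766) and Gapdh (0.0886). B2m, the light chain of class I molecules, was the least steady, from 923 to 3086 (median 1207), and Polr2a, the large subunit of RNA polymerase II, ran from 3290.0 to 6797 (median 3842). Tbp, the TATA-binding protein gene, ran from 343 to 608 (median 372). Of the 15 genes 5, B2m and Tbp among them, were highest in wt_d heart 5, a heart that was highest for 26.8% of the 13490 protein-coding genes with a mean value of at least 10.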

How the data were processed

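RNAseq of 10 WT E13.5 mouse hearts was analysed from 1 table of normalised values deposited by the authors for 48795 Ensembl genes and 20 libraries. The processing notes of the submitters name Trimmomatic 0.36, STAR 2.5.2a, RSEM 1.2.31, DESeq2 and the build GRCm38. RSEM divides reads that fit several genes between them. The deposited values are a signal, reads divided by 1 factor for each library. Median-of-ratios size factors recomputed over the 10 hearts were 0.997 to 1.003 times the deposited ones. Dividing a library's values by its smallest step gave whole numbers for 100% of them (tolerance 1e-06 of a read), so reads were recovered. No count test was run on them, because no groups were compared. They served for depth, for the counting SD (from the Poisson error of the reads on the log2 scale) and for TMM factors and dispersions in edgeR (4.0.16, R 4.3.3). Depth was 6.60 to 19.3 M reads, and reads were not tagged by molecule, so counting error is a lower limit. No 2 hearts agreed within sampling noise (lowest mean chi-square per gene 4.11 over 45 pairs).

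Symbols, biotypes and transcript lengths came from GENCODE vM39, which held 91.3% of the identifiers. The annotation is of build GRCm39, so no gene position is given from it. Levels used the longest transcript, and other lengths were alternatives. The SD used log2(value + 1) and genes with a mean of at least 100, and a list score genes with a mean of at least 10. Named genes are the 25 of highest value, the 25 of highest level, the 30 most and 20 least variable, and members of hand-written lists and couples. Members and lists were chosen with earlier results of these data known. Pearson and Spearman coefficients had 2-sided permutation p-values from 100000 resamples, or from all orders under 10 hearts. The lung and foregut relations were planned over 10 hearts and were run within 7, because the scores formed separate clusters. Replicate numbers were given in listing order and only name a heart. Nothing says whether hearts shared a litter or a batch, so spreads may be in part technical. Alternatives were other lengths, scalings, pseudocounts, filters, measures of spread and leaving out each heart. Some members are not reported here.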

Additional observations from a re-analysis of the deposited data

Results flagged for a closer look

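Of 116 results checked for 1 heart apart from the other 9, 16 had such a heart, where a gap of over 0.466 of the whole range was required. Chance alone gives this in about 1 in 20 groups, a rate that does not hold for the genes among them that were chosen for a large spread between hearts. Results that share genes or a heart are not independent.

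Blood transcripts accounted for several. In wt_t heart 5 Hbb-bs had a value of 64834 (next heart 16077) and Hbb-bt of 28040.1 (next heart 7849.6). The same heart had a Clca3a2 value of 678 (next heart 336), a log2 ratio of Nppb to Nppa of -5.39 (next heart -4.39) and of Ankrd1 to Ankrd23 of 5.36 (next heart 6.73). In wt_t heart 2 Hbb-bh1 was at 1429 (next heart 606), Ermap at 461 (next heart 144) and Hsd3b6 at 1004 (next heart 503).

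In wt_d heart 1 the value of Myh3 was 931 (next heart 67.5), and the log2 ratios of Tnnc2 to Tnnc1, at -7.69 (next heart -11.47), and of Atp2a1 to Atp2a2, at -8.10 (next heart -9.77), were the highest. In wt_d heart 5 the ventricular list had a summed nuclear level of 14963 (next heart 12624), and the log2 ratios of Myl7 to Myl2, at -1.64 (next heart -1.39), and of Hcn2 to Hcn4, at -6.93 (next heart -4.99), were the lowest. Hcn2 had 0 reads in that heart, where 1 read is worth a value of 2.94, so the last ratio is set by the pseudocount and is not evidence that this heart differs. The platelet and megakaryocyte list summed to 53.3 (next heart 31.6) in wt_d heart 3, and the liver list to 16.6 (next heart 10.8) in wt_d heart 2. No cause was tested for any of these.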

How the results depend on the processing

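Depth limits the low lists: 3 reads are worth a value of 2.24 to 8.81, so differences among liver, thymus or lung genes near 0 are not detectable. Leaving out each heart kept 24 to 25 of the 25 genes by value and by level, 31 to 32 couples in 1 order, a cardiomyocyte sum of 30397 to 31788 and 26 to 29 of the 30 most variable genes. Genes with an SD over 0.5 numbered 134 to 347 in these runs, lowest without wt_d heart 5. Of the genes by level 14 were kept without mitochondrially encoded genes, which is every nuclear member. The cardiomyocyte sum moved to 21955 with the union of exons and to 41089 without mitochondrially encoded genes, a change of the denominator. With the union of exons Myl4 to Myl3 turned to -0.64 and Casq1 to Casq2 to -0.61, without division by length Casq1 to Casq2 turned to -0.49, Ckm to Ckb to 0.40 and Cox7a1 to Cox7a2 to -2.99, and with the canonical transcript Cox7a1 to Cox7a2 turned to -2.11. The most variable genes depend on the floor, since 8, 11 and 8 of the 30 were kept at a mean of at least 10, at least 500 and with no filter, and 1221, 89 and 4081 genes then had an SD over 0.5. Without the 4 hearts over 10% mitochondrial reads, an alternative added after seeing the data like the canonical transcript, these numbers were 15 and 70, and the 2 lung and foregut relations gave no value there because 4 hearts were left. Scaled to nuclear protein-coding reads, the atrial and ventricular r turned to -0.27, the mitochondrial share and cardiomyocyte r to -0.067, and the cardiomyocyte and mesenchyme r passed the threshold at -0.80 (permutation test, adjusted p = 0.0359). Leaving out each heart gave a range of r of 0.47 to 0.82 for atrial with ventricular and -0.13 to 0.39 for cardiomyocyte with erythroid. For lung and foregut with glial and neuronal scores it was 0.44 to 0.96. The first passed the threshold without wt_d heart 5 and the last without wt_t heart 4 (exact permutation tests, adjusted p = 0.0458 and 0.00833). The latter p is the smallest possible with the hearts left, and neither was adjusted for the choice among runs. Where not stated, the cause was not tested. No paired analysis was possible because no groups were compared and the labels carry no replicate numbers.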

Other observations

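The values of 6 further imprinted genes are given here. They were chosen after their values were seen, from no fixed list, and nothing was tested. Cdkn1c, an inhibitor of the cell cycle, had a level of 1003 ± 104, Plagl1, a transcription factor, of 539 ± 48.2, Peg3, a zinc finger gene, of 253 ± 34.96, and the amino acid transporter Slc38a4 of 221 ± 38.6. The Notch-related Dlk1 was lower at 73.8 ± 31.2, as was the retrotransposon-derived Peg10 at 66.1 ± 10.02. They differed in evenness. Values of Slc38a4 ran from 4437 to 4949.6 (median 4639) and those of Peg3 from 9846 to 14426 (median 12511), whereas those of Plagl1 ran from 13048 to 29113 (median 15547), those of Cdkn1c from 7423 to 15392 (median 9051) and those of Dlk1 from 995 to 2563 (median 1591).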
